A study of Mus musculus with 9 samples.

Results

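The matrix metalloproteinases (MMPs), the ADAM and ADAMTS proteases, the ADAMTS-like (ADAMTSL) proteins and their inhibitors, the TIMPs and Reck, were examined in the tail end of the mouse embryo. Members were taken by gene symbol alone: every probe whose annotated symbol began with Mmp, Adam, Adamts or Adamtsl followed by a digit, or was Timp1 to Timp4 or Reck. This gave 156 probes for 79 genes, of 45281 probes for 19057 named genes on the array. Of these, 24 probes for 22 genes were detected well enough to be tested.

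Wild-type mouse embryos at embryonic day (E) 10.5 were dissected into 3 regions: the chordoneural hinge (CNH), where the end of the notochord meets the tailbud and where long-lived axial progenitors reside; the tailbud mesoderm (TBM); and the presomitic mesoderm (PSM), which is the tissue that goes on to form somites. Pooled pieces of each region were measured on 3 Illumina mouse Ref6v2 BeadArrays, numbered replicates 1 to 3, and the design asks how the CNH and TBM differ from the PSM and from each other. Of the 3 arrays of a region the methods count 2 as biological and 1 as technical but do not say which, and embryos of the CD1 and C57Bl/6J strains were not assigned to arrays, so p-values measure the spread between these arrays. CNH-to-PSM and TBM-to-PSM comparisons share the same 3 PSM arrays, so they are given side by side and not as independent evidence of each other.

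MMPs are zinc-dependent enzymes, secreted or held at the cell surface, that cut collagens, laminins and other matrix proteins. ADAMs are membrane proteins, several of which release the outer part of receptors, ligands and adhesion molecules (shedding), while the ADAMTS enzymes are secreted and cut proteoglycans and procollagens. The ADAMTSL proteins lack the protease domain, TIMPs bind the active sites of MMPs and of some ADAMs, and Reck is an inhibitor anchored in the membrane.

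A probe was detected on an array when its deposited detection p-value was under 0.01, that is, when its signal exceeded nearly all negative controls of that array. By this measure most of the family was not seen: 104 of the 156 probes (66.7%, against 56.1% of all probes on the array) were detected on no array, 36 on 1 to 8 arrays (8 of them tested and 28 not), and 16 (10.3%, against 22.5%) on all 9. On all 3 arrays of a region, 20 probes were detected in CNH, 20 in TBM and 19 in PSM, which is 19, 18 and 18 genes. The numbers were close in the 3 regions, and 15 genes were detected on all 9 arrays. By gene, 40 were detected on no array and 17 on some arrays without filling any region.

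Detection differed by branch. Of 5 membrane-bound MMP genes 4 could be tested (Mmp14, Mmp16, Mmp17 and Mmp24), and all 4 were detected on every array. Of 16 secreted MMP genes 4 could be tested (Mmp2, Mmp11, Mmp23 and Mmp1a), and 10 were detected on no array. Mmp1a has a close copy, Mmp1b, and whether its probe separates them was not tested. Of 11 ADAM genes known mainly from tissues outside the testis, 4 could be tested (Adam9, Adam15, Adam17 and Adam23). Of the 21 other ADAM genes, most of which are known from testis and epididymis, 19 were detected on no array and none could be tested. Of 17 ADAMTS genes 6 could be tested (Adamts4, Adamts9, Adamts10, Adamts12, Adamts18 and Adamts19), and of 4 ADAMTSL genes only Adamtsl2. Of the 5 inhibitors, Timp1, Timp2 and Timp3 were detected on every array, and Timp4 and Reck on some arrays only.

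**Figure D1:**
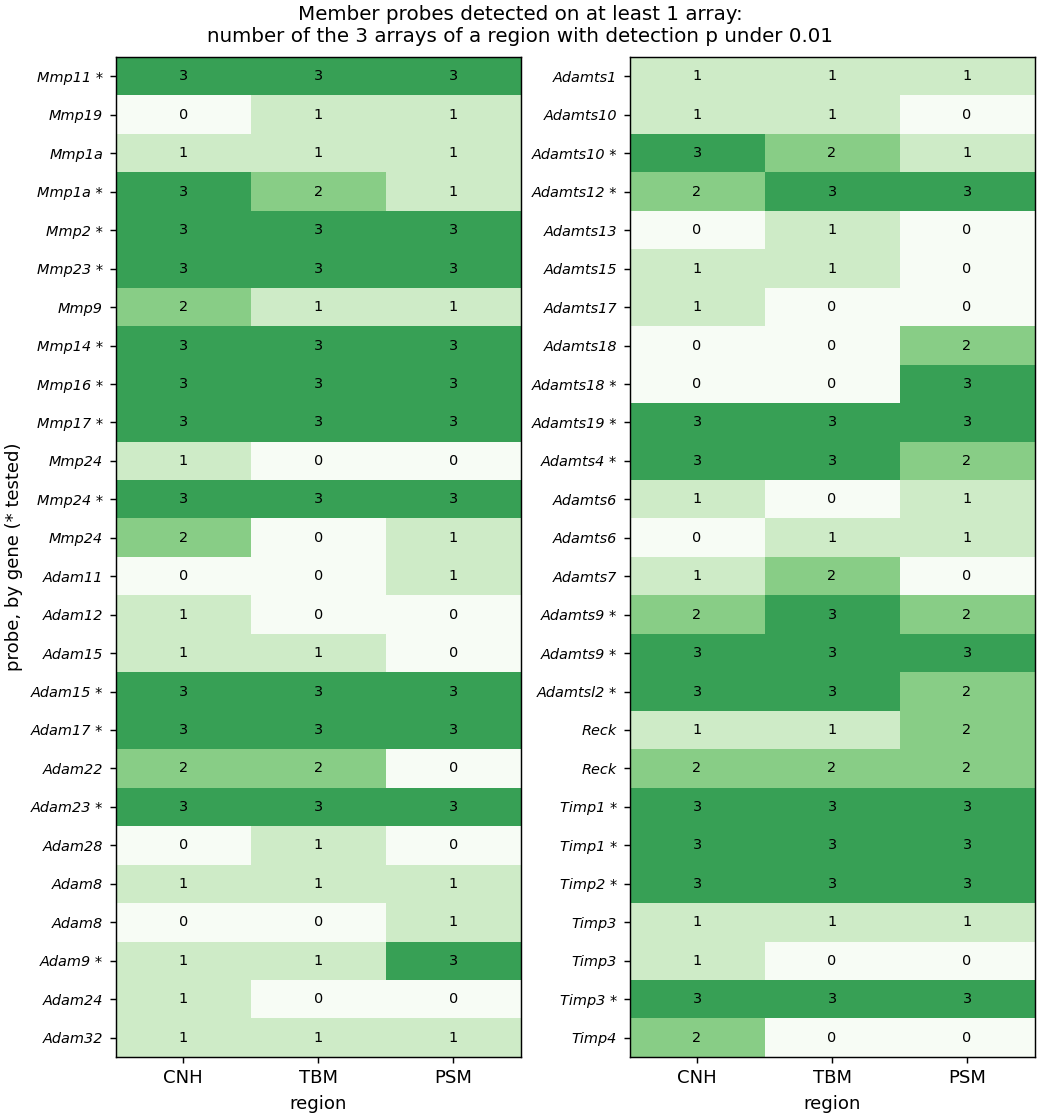
Number of the 3 arrays of each region (columns) on which each member probe (rows, by gene) was detected, for the probes detected on at least 1 array. Stars mark the 24 tested probes, and Adamts18 is the tested gene with 3 detections in PSM and 0 in CNH and TBM.

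A signal not above the negative controls gives only an upper limit of a gene's level. Adam10, the sheddase that starts Notch cleavage, had 2 probes detected on no array, with lowest detection p-values of 0.0716 and 0.166. Timp4 was detected on CNH replicates 1 and 2, and read 5.09, 5.24 and 4.53 on the log2 scale in CNH, against 4.5, 4.36 and 4.37 in TBM and 4.46, 4.49 and 4.33 in PSM. Reck was detected by its brighter probe on replicates 1 and 2 of every region but never on replicate 3, and read 5.71, 5.65 and 4.63 in CNH, 6, 5.81 and 4.52 in TBM and 6.31, 6.10 and 4.62 in PSM. By this probe, on replicates 1 and 2, the CNH value was the lowest and the PSM value the highest within each number, and the regions did not overlap. The dimmer Reck probe did not keep this order. Its signals before normalization in CNH, TBM and PSM were 81.28, 91.09 and 87.3 on replicate 1 and 87.93, 83.28 and 103.3 on replicate 2. On replicate 3 all 3 regions were at background, and Reck did not enter the test. Without the filter on dim probes, limma called 0 of the 132 untested probes in any comparison, and 11, 5 and 4 of them had an unadjusted p under 0.05 for CNH against PSM, TBM against PSM and CNH against TBM.

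Compared with the PSM, 7 member probes were higher and 2 lower in the CNH, 6 higher and 2 lower in the TBM. A probe was called when its limma p-value, adjusted by Benjamini-Hochberg over all 12437 tested probes, was under 0.05 and its fold change at least 1.5. In CNH against PSM 9 of 24 members (37.5%) were called, where 11.2% of all tested probes were called, 6.66% higher and 4.54% lower. In TBM against PSM 8 of 24 (33.3%) were called, against 9.42% of all tested probes, 5.37% higher and 4.05% lower. In CNH against TBM 1 of 24 (4.17%) was called, against 1.01% of all tested probes, 0.78% higher and 0.225% lower. The median change of the 24 members was 0.19 on the log2 scale in CNH against PSM, 0.26 in TBM against PSM and -0.05 in CNH against TBM, beside -0.04, -0.02 and -0.02 over all tested probes. All 8 members called in TBM against PSM were also called in CNH against PSM, in the same directions, and Timp3 was the one called only with CNH. Adamts18, 1 of the 2 lower members, entered the test through its detection in PSM alone. Adamtsl2, a higher member, entered through CNH and TBM, with 2 PSM arrays detecting it.

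These calls rest on using the replicate number as a block, because replicate 3 stood apart from replicates 1 and 2 in every region. Without the block, 1 member was called in CNH against PSM (Adamts18, lower) and 0 in TBM against PSM and in CNH against TBM, where 6 and 1 members had an unadjusted p under 0.05 in limma. Of all tested probes 2.82%, 2.15% and 0% were called there. Every called member kept its sign, and without replicate 3 of all regions 10, 9 and 0 members were called, with 12, 13 and 9 at an unadjusted p under 0.05. In that setting 12.4%, 10.6% and 1.17% of all tested probes were called. On the deposited VST values, CNH against PSM had 2 called members (Adamtsl2 and Mmp2) and TBM against PSM had 1 (Adamtsl2), although 9 and 6 members had an adjusted p under 0.05 there. The shares of all tested probes called on those values were 2.24% and 1.95%. In pooled tissue, fewer cells of a type and less RNA per cell cannot be told apart.

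**Figure D2:**
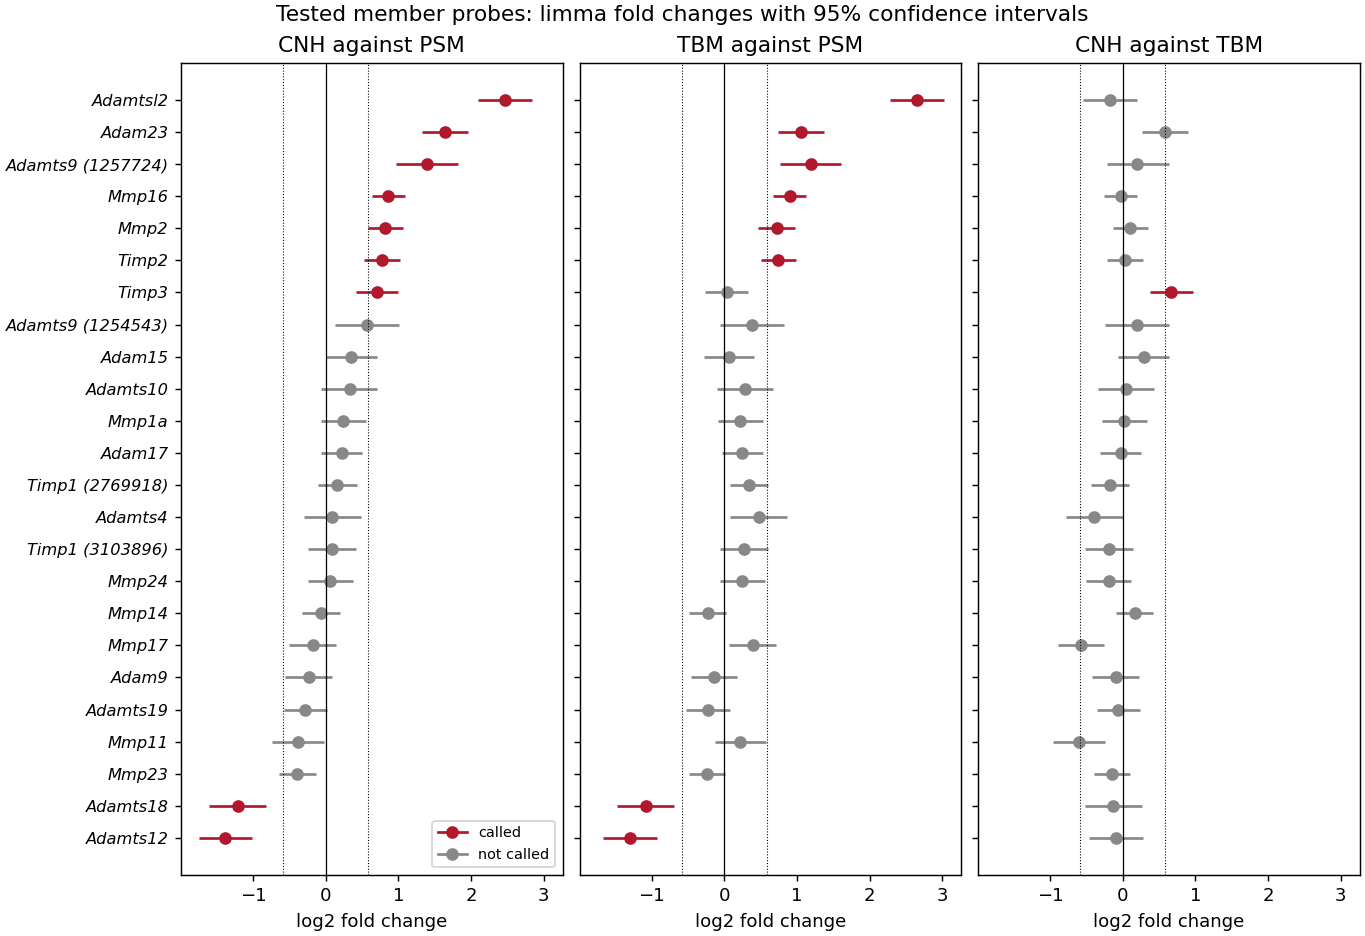
Log2 fold change (x axis) of each of the 24 tested member probes (rows) by limma, with 95% confidence intervals as bars, for the 3 comparisons. Red points were called, and dotted lines mark a 1.5-fold change; Adamtsl2 stands furthest out at 2.47 in CNH and 2.65 in TBM against PSM.

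The largest change among the members was in Adamtsl2, a secreted protein without protease activity that binds fibrillin microfibrils and latent TGF-beta binding protein and is mutated in human geleophysic dysplasia. It read 7.52, 7.63 and 8.93 in CNH (log2 normalized signal of replicates 1 to 3, as for all array values here), 8.03, 7.84 and 8.76 in TBM, and 5.19, 4.87 and 6.62 in PSM. Every CNH and TBM array lay above every PSM array, and 2 of the 3 PSM arrays detected the probe. The difference was 2.47 in CNH (5.54-fold, SE 0.16, adjusted p = 5.4e-06) and 2.65 in TBM (6.28-fold, SE 0.16, adjusted p = 4.51e-06). The probe entered the test through CNH and TBM, where it is high, so these p-values do not stand apart from that selection. With no filter on dim probes the limma adjusted p-values were 0.000449 in CNH and 0.000467 in TBM.

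The promoter of Adamtsl2 is shown because this gene carries the largest change in the family. It lies at chr2:27079129-27079428 on the plus strand (RefSeq, GRCm38.p6, from 250 bases before to 50 bases after the annotated start). Capitals mark matches on either strand, and the motifs were chosen after the sequence was seen. In their order along the sequence they are GGGCGG, the GC box bound by Sp factors. Next comes TCACAC, read on the reverse strand, which is a core of T-box sites. It is followed by the TATA box, searched as TATAAA. The run ends with CTTTGA, a core of TCF/LEF sites. TTTATG, a core of CDX sites, was searched as well and is not in this window. The same holds for CCGGAA, a core of ETS sites.

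Adamtsl2: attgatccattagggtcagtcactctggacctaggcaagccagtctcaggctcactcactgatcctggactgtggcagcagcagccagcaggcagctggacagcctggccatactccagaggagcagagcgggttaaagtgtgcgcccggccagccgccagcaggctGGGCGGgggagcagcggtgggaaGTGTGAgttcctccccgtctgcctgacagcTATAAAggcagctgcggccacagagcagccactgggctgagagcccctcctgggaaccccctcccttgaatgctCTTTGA

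These short words are common: of 32851 mouse promoters of the same length 35.7% held GGGCGG, 14.5% TCACAC, 13.6% TATAAA and 16% CTTTGA, and the CDX and ETS cores were in 11.9% and 14.9%. Of the 9 called genes, 7 had a listed promoter, and TATAAA and CTTTGA were found in that of Adamtsl2 only, TCACAC in those of Adamtsl2 and Timp2, and GGGCGG in 5, while the CDX and ETS cores were in none of the 7. A match is not a binding site.

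Among the secreted MMPs, Mmp2 (gelatinase A, which cuts denatured collagen and the collagen IV of basement membranes) was higher in both tailbud regions. It read 9.94, 10.10 and 10.74 in CNH, 9.86, 10.05 and 10.56 in TBM, and 9.27, 9.13 and 9.91 in PSM. PSM replicate 3 overlapped the range of the TBM arrays but was below the CNH and TBM arrays of its own number, as were replicates 1 and 2. The difference was 0.82 in CNH (1.77-fold, SE 0.11, adjusted p = 0.000523) and 0.72 in TBM (1.65-fold, SE 0.11, adjusted p = 0.00147). Mmp23, an MMP that lacks the haemopexin domain, read 5.12, 5.31 and 6 in CNH, 5.30, 5.36 and 6.20 in TBM and 5.70, 5.62 and 6.27 in PSM. Its CNH difference of -0.39 had an adjusted p of 0.0377 in limma but was under the 1.5-fold limit.

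The membrane-type MMPs did not move together. Mmp16 (MT3-MMP) was the member that changed, at 5.97, 6.30 and 6.53 in CNH, 6.09, 6.28 and 6.54 in TBM, and 5.22, 5.41 and 5.59 in PSM. The PSM arrays did not overlap those of the other regions, and the difference was 0.86 in CNH (1.82-fold, SE 0.10, adjusted p = 0.000238) and 0.90 in TBM (1.86-fold, SE 0.10, adjusted p = 0.000237). Mmp14 (MT1-MMP), which together with Timp2 activates the Mmp2 proenzyme at the cell surface, read 9.66, 9.49 and 8.40 in CNH, 9.52, 9.50 and 8.02 in TBM, and 9.62, 9.68 and 8.45 in PSM. The 3 regions overlapped, and the 95% interval of its difference from PSM ran between -0.33 and 0.19 in CNH and between -0.49 and 0.02 in TBM. Mmp17, an MMP tethered by a lipid anchor, read 6.77, 6.29 and 7.48 in CNH, 7.07, 6.97 and 8.22 in TBM, and 6.52, 6.76 and 7.80 in PSM, and was called in no comparison.

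Of the ADAMs, Adam23, which lacks a catalytic zinc site and acts as an adhesion protein known from neurons, was higher in both tailbud regions. It read 6.82, 6.90 and 9.40 in CNH, 6.20, 5.96 and 9.20 in TBM, and 5.06, 5.22 and 7.92 in PSM. The replicate 3 arrays were 2.55, 3.12 and 2.78 above the mean of replicates 1 and 2 in the CNH, TBM and PSM, which is more than the difference between regions, so the regions overlapped and were separated within each number. The difference was 1.64 in CNH (3.11-fold, SE 0.14, adjusted p = 2.84e-05) and 1.05 in TBM (2.08-fold, SE 0.14, adjusted p = 0.000648).

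The catalytic ADAMs were not called. Adam17, which releases TNF and ligands of the EGF receptor, read 7.86, 7.89 and 9.86 in CNH, 7.77, 8.05 and 9.89 in TBM, and 7.85, 7.56 and 9.55 in PSM, with 95% intervals of -0.06 to 0.50 for CNH and -0.03 to 0.53 for TBM against PSM. Adam15, a membrane protease with an integrin-binding domain, read 6.08, 5.83 and 5.88 in CNH, 5.50, 5.91 and 5.51 in TBM, and 5.73, 5.83 and 5.17 in PSM, and its CNH difference of 0.35 had an adjusted p of 0.155 in limma. The regions overlapped for both genes.

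The ADAMTS enzymes went both ways. Adamts9, which cuts versican and aggrecan, was higher in both tailbud regions at 7.79, 7.53 and 8.37 in CNH and 7.28, 7.41 and 8.39 in TBM, against 6.56, 6.41 and 6.53 in PSM. No PSM array reached the other regions, and the difference was 1.39 in CNH (2.63-fold, SE 0.19, adjusted p = 0.000567) and 1.19 in TBM (2.28-fold, SE 0.19, adjusted p = 0.00186). A second, dimmer Adamts9 probe had differences of 0.57 and 0.38 with adjusted p-values of 0.0757 and 0.268 in limma and was not called. Adamts19, known from heart valves, read 5.05, 5.55 and 6.13 in CNH, 5.21, 5.40 and 6.31 in TBM, and 5.57, 5.43 and 6.59 in PSM, and its regions overlapped.

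Adamts12, which cuts cartilage oligomeric matrix protein, was lower in both tailbud regions. It read 4.59, 5.20 and 6.42 in CNH, 5.16, 5.29 and 6.01 in TBM, and 6.35, 6.58 and 7.43 in PSM. Only CNH replicate 3 reached the lowest PSM array, and the difference was -1.39 in CNH (SE 0.17, adjusted p = 0.000241) and -1.30 in TBM (SE 0.17, adjusted p = 0.000453). CNH replicate 1 did not detect the probe, so the CNH difference rests partly on a value at background, and it was -1.17 without that array.

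Adamts18, known in mice for its part in the eye and in branching organs, was the tested member detected in PSM alone. It read 4.58, 4.55 and 4.26 in CNH, 4.53, 4.54 and 4.70 in TBM, and 5.40, 5.51 and 6.10 in PSM, and was not detected on any CNH or TBM array. Because those values are not above background, the change is a bound, taken against the lowest detected signal of each array: Adamts18 was at least 1.74-fold lower in CNH (limma adjusted p = 0.000793) and at least 1.69-fold lower in TBM (adjusted p = 0.00192). The probe entered the test through PSM alone, the region where it is high, so these p-values do not stand apart from that selection. With no filter on dim probes the limma adjusted p-values were 0.0129 in CNH and 0.0247 in TBM. A second probe, not tested, was detected on 2 PSM arrays and on no CNH or TBM array, and 3 other probes were detected nowhere.

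The promoter of Adamts18 is shown because the gene was detected in one region only. It lies at chr8:113848790-113849089 on the minus strand (RefSeq, GRCm38.p6). Of the motifs searched it held a GC box only, on the reverse strand, in capitals.

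Adamts18: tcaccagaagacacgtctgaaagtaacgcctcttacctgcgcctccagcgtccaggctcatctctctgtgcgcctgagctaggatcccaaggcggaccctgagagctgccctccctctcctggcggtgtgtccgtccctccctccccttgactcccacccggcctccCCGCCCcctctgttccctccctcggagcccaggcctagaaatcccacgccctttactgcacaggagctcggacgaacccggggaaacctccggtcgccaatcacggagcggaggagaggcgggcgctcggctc

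Among the inhibitors, Timp2 was higher in both tailbud regions and Timp1 was not called. Timp2 read 8.66, 8.6 and 9.11 in CNH and 8.58, 8.74 and 8.94 in TBM, against 7.90, 7.97 and 8.17 in PSM. All 3 PSM arrays were below all others, and the difference was 0.78 in CNH (1.72-fold, SE 0.11, adjusted p = 0.000693) and 0.74 in TBM (1.68-fold, SE 0.11, adjusted p = 0.00112). Timp1 read 7.27, 7.29 and 8.68 in CNH, 7.64, 7.64 and 8.52 in TBM, and 7.55, 7.25 and 8.19 in PSM, with 95% intervals of -0.25 to 0.41 for CNH and -0.06 to 0.60 for TBM against PSM.

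Timp3, which binds to the matrix and also inhibits Adam17, was the one member called between CNH and TBM. It read 7.54, 7.46 and 8.21 in CNH, 7.03, 6.57 and 7.61 in TBM, and 6.66, 6.81 and 7.63 in PSM. The CNH array was the highest within each number, and CNH was 0.70 above PSM (1.63-fold, SE 0.13, adjusted p = 0.00397) and 0.67 above TBM (1.59-fold, SE 0.13, adjusted p = 0.048). TBM differed from PSM by 0.04 (95% interval -0.26 to 0.33). The difference from TBM lay at the edge of the threshold and was called in 4 of 22 settings, and that from PSM in 16 of 22: it was lost without the block, at an offset of 50 (0.58), where background was not corrected (0.51), on the deposited values (0.26), without PSM replicate 1 and at the stricter threshold. The other Timp3 probes, detected on some arrays only, were not tested. By signal before normalization, the first read 69.39, 76.98 and 85.61 in CNH and 66.09, 73.77 and 85.92 in TBM (replicates 1 to 3). The second read 88.52, 86.32 and 61.74 in CNH and 78.52, 72.9 and 60.32 in TBM. Markers listed for neighbouring tissues also differed between CNH and TBM, where 0.78% of all tested probes were called higher in CNH than in TBM. All 4 tested markers of notochord and floor plate were higher in CNH (summed level 10.12 to 11.51 in CNH, 8.27 to 10.27 in TBM). So were Sox2 and Lmx1a, the 2 tested genes of the neural tube list (7.46 to 7.62 in CNH, 5.85 to 6.59 in TBM). Shh and Sox2 entered the test through CNH alone, the region where they are high. In TBM, 2 arrays detected Shh and 1 detected Sox2. Of the 10 neural tube markers, 7 were detected on no array, among them Sox1 and Pax6. The authors' supplement lists Lmx1a with notochord genes, and whether Sox2 and Lmx1a stand for neural tube here was not tested. Both that list of notochord genes and the supplement's list for neural tube hold Timp3. Of 5 tested gut endoderm markers only Tmprss2 was called, higher in CNH by 1.51. Cdh1 differed by -0.35, and Krt8, Krt18 and Cldn6 by 0.12, 0.30 and 0.55. The part of these tissues in the Timp3 difference was not tested.

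**Figure D3:**
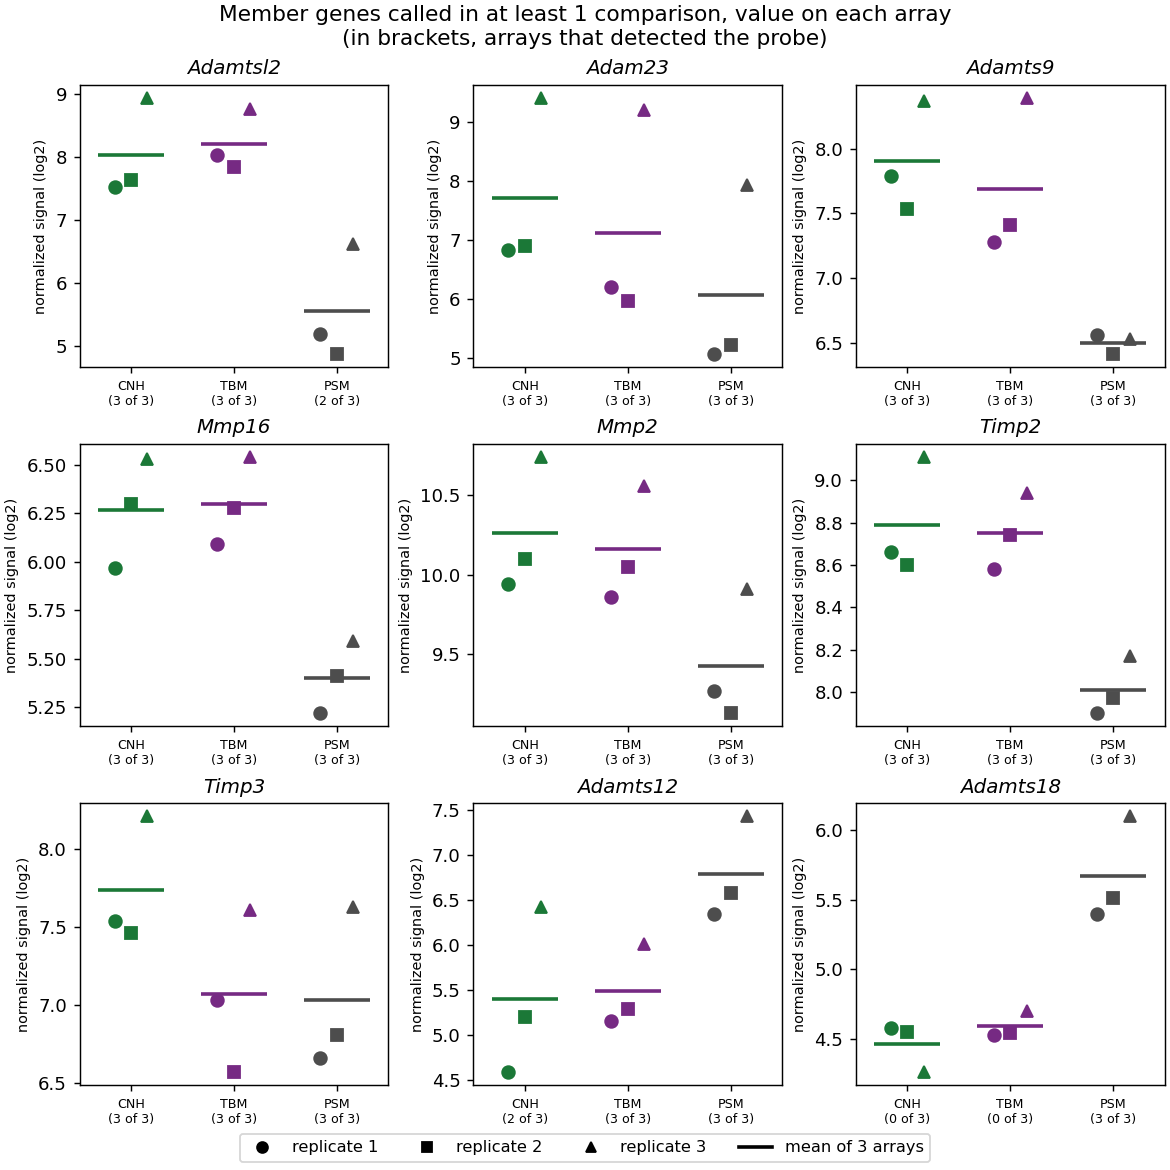
Log2 normalized signal (y axis) on each array of the 9 member genes called in at least 1 comparison, by region (x axis), with the mean of 3 arrays as a line and the replicate number as the symbol. Replicate 3 (triangles) stands above the others in most panels, while Adamts9, Mmp16, Timp2 and Adamtsl2 show every PSM array below the other regions.

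CNH and TBM differed little for most members. Besides Timp3, 3 members had an unadjusted p under 0.05 and were not called: Adam23 was 0.58 higher in CNH (95% interval 0.27 to 0.90, adjusted p = 0.103 in limma), and Mmp17 and Mmp11 were lower by -0.57 (-0.89 to -0.26, adjusted p = 0.11) and -0.60 (-0.96 to -0.25, adjusted p = 0.127). Mmp11 (stromelysin-3) read 4.95, 5.44 and 5.21 in CNH, 5.93, 5.98 and 5.51 in TBM, and 5.76, 5.49 and 5.50 in PSM. For Adamtsl2, Mmp2, Mmp16 and Timp2, the intervals of CNH against TBM ran from -0.55 to 0.19, from -0.14 to 0.35, from -0.26 to 0.20 and from -0.21 to 0.28.

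Among genes that act on or with the family, called changes went in both directions. Beside them, 11.2% of all tested probes were called in CNH against PSM and 9.42% in TBM against PSM. The lists are short and none was tested as a set. Of 5 tested genes of proprotein cleavage and the plasmin system, 1 was higher and 2 lower in each tailbud region against PSM. Furin, which activates the membrane MMPs and ADAMs, differed by 1.46 in CNH and 1.24 in TBM, and Pcsk6, another proprotein convertase, by -1.61 and -1.73. Plat, the tissue plasminogen activator, was detected on 3 PSM arrays but on 1 CNH array and on no TBM array. It was at least 1.53-fold lower in TBM (limma adjusted p = 0.000209), and it entered the test through PSM alone. Of 3 tested genes of the tolloid group, Pcolce2 was lower in CNH (-0.85) and Pcolce, which enhances procollagen cleavage, higher in TBM (0.66). Of 10 tested partners of the sheddases 3 were higher in each region, among them Rhbdf1 (iRhom1, which escorts Adam17), at 0.77 in CNH and 0.73 in TBM. Psen2, another of them, entered the test through CNH and TBM, with 1 PSM array detecting it. Of 9 tested substrates of the sheddases, 1 was higher and 4 lower in CNH, and 1 higher and 3 lower in TBM. Notch1 differed by -1.87 in CNH and -2.08 in TBM, Efna5 by -1.47 and -1.51, Cdh1 by -1.12 (with 1 of 3 CNH arrays detecting it) and -0.77, and the prion protein gene Prnp by 1.00 and 0.91. Of 14 tested matrix substrates 2 were higher and 3 lower in CNH, led by Col18a1 at -1.04, and 1 was higher and 1 lower in TBM. Ncan, 1 of the 2 higher in CNH, entered the test through CNH alone and was detected on no PSM array. Its change is a bound of at least 1.33-fold, which is under the 1.5-fold limit. The TBM count lies near the share over all tested probes and is not read as a change of this group.

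Genes of the marker lists for other cell types were called as well, beside 11.2% of all tested probes in CNH against PSM and 9.42% in TBM against PSM. All 10 tested markers of tailbud progenitors were higher in CNH than in PSM and 9 of 10 in TBM. Cdx4, Nkx1-2 and Cyp26a1 entered the test through CNH and TBM, and not every PSM array detected them. All 5 tested somite markers were lower in both, and Pax1, Pax9, Myf5 and Tbx18 were detected on no array. Foxc2 entered the test through PSM alone, with 0 CNH arrays and 1 TBM array detecting it. It was at least 9.35-fold lower in CNH. Of 5 tested presomitic mesoderm markers, 3 were lower in CNH and 2 in TBM, and Lfng was detected on no array. Mesp1 and Ripply2, lower in both, entered the test through PSM alone, and no CNH or TBM array detected them. They were at least 9.41-fold and 6.82-fold lower in CNH and at least 9.13-fold and 6.61-fold lower in TBM. Among the 5 presomitic mesoderm markers, Tbx6 went the other way, by 0.12 in CNH and 0.54 in TBM, and was not called. Of 10 tested endothelial markers, 7 were higher in CNH and 3 in TBM, with a summed level of 11.64 to 11.86 in CNH, 11.46 to 11.61 in TBM and 11.05 to 11.13 in PSM, and Tie1 detected on no array. Both tested markers of surface ectoderm, Trp63 and Krt14, were lower in CNH and TBM, with a summed level of 5.75 to 6.26 in CNH, 6.01 to 6.81 in TBM and 9.10 to 9.12 in PSM. Trp63 entered the test through PSM alone, with 1 CNH array and 2 TBM arrays detecting it. Perp, another marker of surface ectoderm, was detected on no array. Of 7 tested erythroid markers, 3 were higher in CNH and 2 in TBM, with a summed level of 15.93 to 16.26 in CNH, 15.87 to 16.09 in TBM and 15.54 to 15.99 in PSM. Both tested genes of the neural tube list, Sox2 and Lmx1a, were higher in CNH than in PSM, and 7 of the 10 listed were detected on no array. Of 4 tested markers of notochord and floor plate, 2 were higher in CNH than in PSM, with Foxa2 detected on no array. In TBM 1 of the 4, Sox9, was lower. Of 5 tested markers of gut endoderm, Tmprss2 was higher in CNH (3.48) and TBM (1.97), and 1 was lower in CNH and 3 in TBM, with Epcam detected on no array. Of 10 macrophage markers, 2 could be tested and 5 were detected on no array. The part of these cells in the changes of the proteases and inhibitors was not tested.

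Across the alternative settings, no called member changed sign. Adamtsl2 kept its calls against PSM in every setting that tested it except without the replicate block, where its adjusted p was 0.0654 for CNH and 0.0584 for TBM in limma. Mmp2 had adjusted p-values of 0.394 and 0.644 without the block, and Mmp16 of 0.0984 and 0.103. Mmp16 fell under the 1.5-fold limit in both regions with no background correction (0.44 in CNH, 0.46 in TBM), with an offset of 50 (0.54 and 0.56) and on the deposited values (0.17 and 0.17). Adamts18 lost its call with no background correction (-0.55 in CNH, -0.46 in TBM), on the deposited values (-0.19 and -0.16) and, in TBM, with an offset of 50 (-0.55). Leaving out 1 array at a time gave 9 to 10 called members in CNH against PSM, 8 to 9 in TBM against PSM and 0 to 1 in CNH against TBM.

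**Figure D4:**
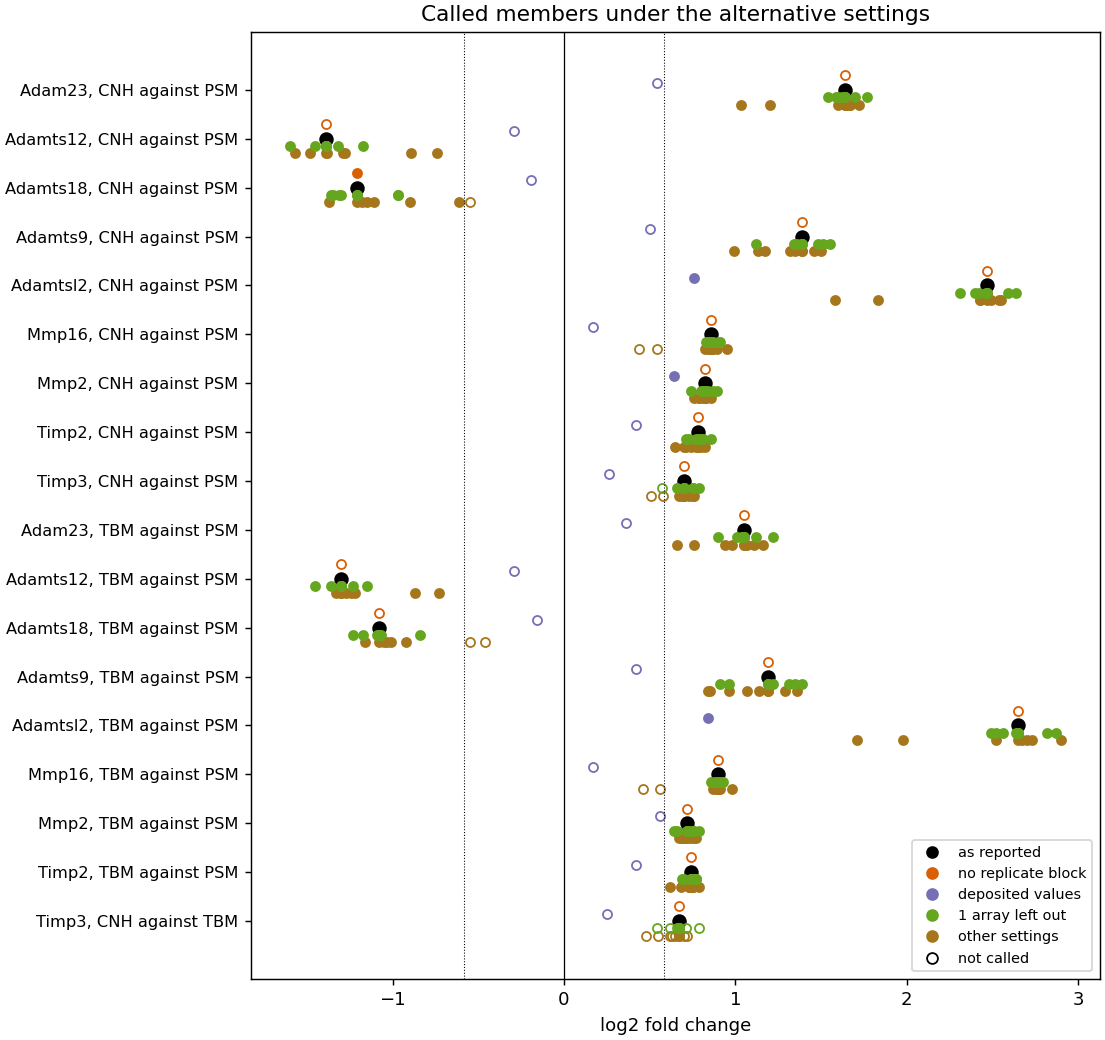
Log2 fold change (x axis) of each called member (rows) under each alternative setting, with open circles where the change was not called and dotted lines at 1.5-fold. Adamtsl2 stays furthest from 0 in most settings, and the deposited values give the smallest changes for most members.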

How the data were processed

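RNA from pooled pieces of the 3 tail regions was measured on 9 single-colour Illumina Ref6v2 arrays. The deposited non-normalized table holds an intensity on a linear scale and a detection p-value for each probe and array. For the second table the authors used lumi, with variance-stabilizing transformation (VST) followed by robust spline normalization (RSN), which gives log2-like deposited values, used here as an alternative. In R 4.3.3 with limma 3.58.1, neqc inferred the negative controls from the detection p-values, applied normexp background correction with an offset of 16, and quantile normalized the log2 values. Member probes detected per array numbered 22 to 34, of 13621 to 14809 over the whole array, and median signals were 76.8 to 80.4 on replicates 1 and 2 and 63.0 to 67.1 on replicate 3. The number of arrays limits the precision. Of the probes, 34885 carried 1 gene symbol, 18 several and 10378 none, and all 79 member genes matched RefSeq.

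A probe entered the fit when every array of some region detected it (p under 0.01). The model had region means and the replicate number from the titles as a block (4 residual degrees of freedom). Centred by region, arrays of the same number correlated across regions at 0.862 to 0.89, 0.858 to 0.898 and 0.936 to 0.964 for numbers 1 to 3, numbers 1 and 2 at 0.863 to 0.893, and number 3 with 1 and 2 between -0.93 and -0.895, so the block takes up the difference of replicate 3 and does not pair 1 and 2 more closely than across. The brightest tested probe stands for a gene. Values on every array are given for genes with a called probe, the inhibitors, Mmp2, Adam10, Adam17 and the 5 brightest other members, and for other lists up to 4 called genes; Mmp11 was added after its values were seen. Members and lists were chosen with earlier results of these arrays known. The fit was tested on simulated data.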

Additional observations from a re-analysis of the deposited data

How the results depend on the processing

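Over all alternatives the called members kept their direction, and 325 of their values stayed on the same side of the threshold while 65 lost the call. Without the replicate block, limma called 1 member in CNH against PSM, 0 in TBM against PSM and 0 in CNH against TBM, where 7, 6 and 1 members had an unadjusted p under 0.05, and 351, 268 and 0 of all probes were called. The deposited values gave 2, 1 and 0, beside 2.24%, 1.95% and 0.121% of all tested probes. An adjusted p under 0.01 with 2-fold gave 5, 5 and 0, beside 4.8%, 3.97% and 0.145%. Keeping only probes detected on all 9 arrays, which leaves 16 members and drops Adamtsl2, Adamts12 and Adamts18, gave 5 in TBM against PSM, beside 7.49% of all probes kept. In CNH against TBM, Timp3 was also lost, leaving 0, with no background correction, an offset of 50, no filter on dim probes, scaling to a common median, without replicate 3 of all regions, and with any pair of replicates averaged, while 1 to 9 members had an unadjusted p under 0.05 in the settings with 0 calls; it was kept only with the filter on all 9 arrays, with no fold limit, or without PSM replicate 1 or 3. Against PSM, no background correction ended the calls of Mmp16 and Adamts18 in both regions and of Timp3 in CNH, and an offset of 50 those of Mmp16 in both, Adamts18 in TBM and Timp3 in CNH. Leaving out 1 array gave 9 to 10, 8 to 9 and 0 to 1. The cause of these losses was not tested. With detection p under 0.05, 23, 25 and 22 probes were detected in CNH, TBM and PSM, and on at least 2 of 3 arrays 27, 25 and 25. Signal over background limits the rest: 104 of 156 member probes were at background on every array.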

Other observations

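Several members lie side by side in the genome. On mouse chromosome 9, 10 neighbouring Mmp genes form a run, 9 of them have probes here, and Mmp1a was the only one detected on any array. On chromosome 8, the run of Adam18, Adam3, Adam5, Adam32 and Adam9 had 2 genes detected on any array and 1 tested (Adam9), the run of 4 with Adam24 had 1 detected, and the run of 4 with Adam34 had 0. Replicate 3 differed from the mean of replicates 1 and 2 by more than 1 on the log2 scale in every region for 4 tested members. It was higher for Adam23, Adam17 (by 1.99, 1.98 and 1.84 in CNH, TBM and PSM) and Mmp1a (by 1.28, 1.27 and 1.69), and lower for Mmp14 (-1.17, -1.49 and -1.19).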
